A study of Arabidopsis thaliana with 30 samples.

Results

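Pericentromeric peaks were taken from all 30 peak lists as those whose summit lay in 7 intervals of the TAIR10 genome. On chromosome 1 the interval ran from 13000000 to 17000000 bp, on chromosome 4 from 2800000 to 5500000 and on chromosome 5 from 10000000 to 14000000. Chromosome 2 had an interval from 2000000 to 3200000 and one from 3600000 to 5500000, and chromosome 3 had one from 11500000 to 14100000 and one from 14300000 to 16000000. Of 734458 peaks in all, 23201 met this rule, which is 3.16%, while the intervals cover 18.1 of 119.1 Mb, or 15.2% of the genome. The lists are ATAC-seq peak calls from Arabidopsis thaliana, each marking DNA that was accessible to a transposase.

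The groups held 2 libraries each. Col-0, the wild type, was sampled as root and shoot of 2-week plants and as stem of 4-week plants, and in stem the effects of organ and of age cannot be separated. All mutants were sampled as 2-week shoot: ros1-4, rdd-2, drdd, met1-9, nrpd1-3, gcn5, hda6 and sdg2-4, and the last 4 also combined with ros1-4. Nothing in the labels says that the libraries of a group came from separate plants, so p-values measure the spread between these libraries.

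Pericentromeric chromatin of Arabidopsis is rich in transposable elements and poor in genes, and is kept compact by DNA methylation and repressive histone marks. MET1 copies CG methylation onto new DNA strands, and NRPD1 is the large subunit of RNA polymerase IV, which starts RNA-directed DNA methylation. HDA6 is a histone deacetylase needed for silencing of repeats, GCN5 is a histone acetyltransferase, and SDG2 methylates lysine 4 of histone H3. ROS1 removes methylated cytosine from DNA, and is related to DME, DML2 and DML3, of which rdd-2 lacks DML2 and DML3 besides ROS1 and drdd lacks DME as well.

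The intervals held 54.3 protein-coding genes per Mb against 261.9 outside, and 155.7 pseudogenes per Mb against 20.0, or 58.2% of all annotated pseudogenes. The density of peaks did not step in 1 direction at the interval ends. In the 100 kb on either side of an end, the median number of peaks over libraries was 13 inside against 8 outside at the right end on chromosome 5, and 15 inside against 17 outside on chromosome 3. At the right end on chromosome 4 it was 8.5 inside against 2 outside. The largest step was at 3.2 Mb of chromosome 2, with 0 inside against 29 in the stretch left out between the intervals. How reads that match several places were treated is not given in the sources used here, which bears on every value in repeats.

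The shortest list had 17315 peaks (stem, replicate 1) and the longest 38392 (met1-9, replicate 1). The background level read back from fold and p, which stands in for depth, ran from 5.17 fragments in ros1-4 replicate 2 to 32.5 in gcn5 replicate 2, and the met1-9 libraries had 18.6 and 13.3 against 6.60 and 8.48 in Col-0 shoot. Peak names give met1-9 another series prefix and the word leaf although its label says shoot, and those of hda6 and sdg2-4 fall in another number range than those of their ros1-4 doubles. For the comparison with and without ros1-4, values that leave out the hda6 and sdg2-4 backgrounds are given below. Otherwise the part of these differences in the results was not tested. In met1-9, genotype goes together with the other prefix and the word leaf, so their effects cannot be told apart.

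Pericentromeric peaks were most frequent in met1-9, the MET1 mutant. The met1-9 lists held 2937 and 1853 of them, or 7.65% and 6.95% of their peaks. The Col-0 shoot lists held 516 and 561, or 2.52% and 2.57%. Both met1-9 libraries lay far above every other library, none of which exceeded 3.91%.

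The hda6 lists came next with 969 and 636 peaks, which is 3.91% and 3.55%. With ros1-4 as well, hda6 had 3.33% and 3.22%. These 4 libraries lay above all the rest apart from met1-9. Replicate 2 of hda6 had a short list of 17925 peaks, so its number was low while its share was high.

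The remaining groups spanned a narrow range. As mean ± SD (n = 2), the share was 3.01% ± 0.0396 in nrpd1-3, 2.95% ± 0.0007 in sdg2-4, 2.92% ± 0.0134 in root, 2.78% ± 0.0940 in gcn5 and 2.69% ± 0.108 in stem. It was 2.54% ± 0.0318 in Col-0 shoot, 2.44% ± 0.0898 in rdd-2, 2.29% ± 0.0184 in drdd and 2.21% ± 0.0382 in ros1-4. Libraries of all of these groups lay wholly above or wholly below those of Col-0 shoot, although rdd-2 replicate 2, at 2.50%, was close to it. With 2 libraries against 2 an exact test cannot reach 0.05, so these levels are a description. With every list cut to the same length, gcn5 changed sides, with 2.40% and 2.37% against 2.53% and 2.58% in Col-0 shoot, while met1-9 had 6.25% and 6.33%.

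**Figure D1:**
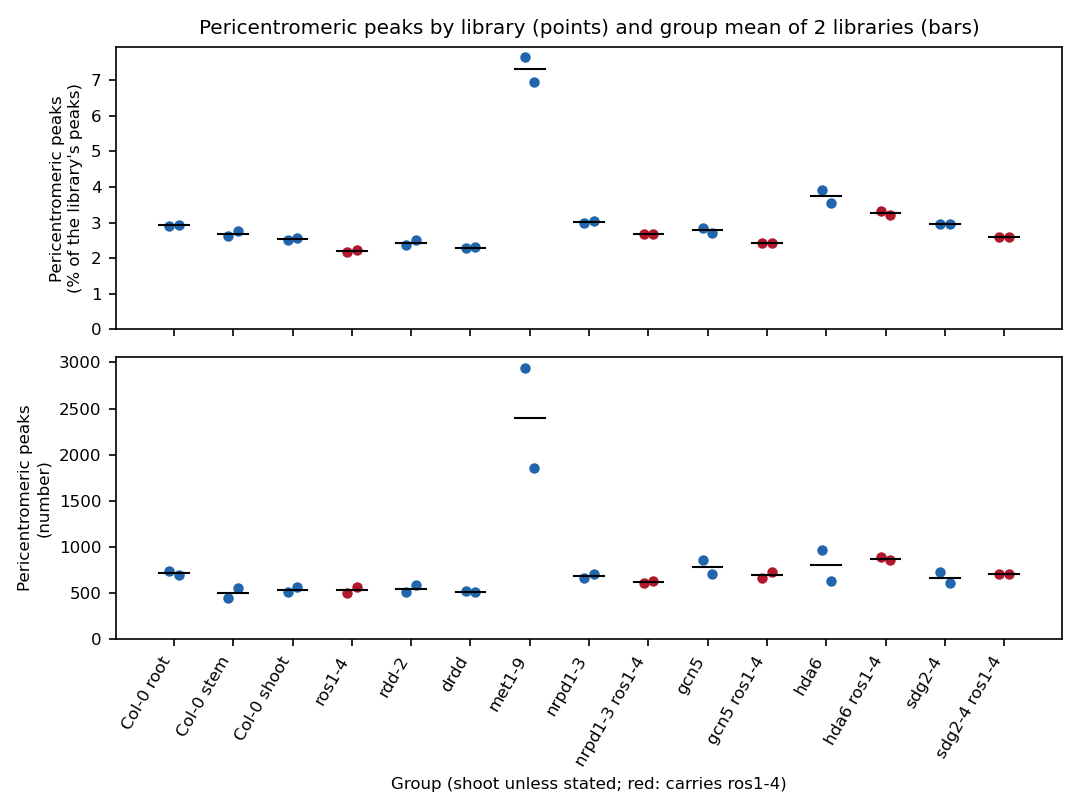
Pericentromeric peaks as a percent of each library's peaks (top) and as a number (bottom), with 1 point per library, a bar at the mean of the 2 libraries of a group, and red for groups that carry ros1-4. Both met1-9 libraries stand above all others, at 7.65% and 6.95%, and each group with ros1-4 lies below its partner without it in share.

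Fold, the authors' ratio of pileup at the summit to local background, was also slightly higher at pericentromeric peaks in most libraries. In Col-0 shoot the median fold was 5.14 and 5.08 at pericentromeric peaks against 4.81 and 4.75 at all others. In gcn5 it was 5.01 and 4.75 against 5.03 and 4.73. In met1-9 replicate 1 it was lower, 5.17 against 5.51, and in replicate 2 it was higher, 5.65 against 5.53. Peaks of at least 10-fold made up 19.4% and 20.4% of pericentromeric peaks in met1-9, and 8.91% and 8.38% in Col-0 shoot. Among all other peaks they made up 17.4% and 15.9% in met1-9 and 5.32% and 5.72% in Col-0 shoot, so the difference was not limited to the intervals.

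The chromosomes did not share the met1-9 increase equally. Relative to Col-0 shoot, the share of the list that fell in the interval of chromosome 4 was 4.10 times as high in met1-9. The ratio was 3.24 on chromosome 2, 3.15 on chromosome 3, 2.88 on chromosome 5 and 1.999 on chromosome 1. In Col-0 shoot, chromosome 1 was the densest, with 38.1 peaks per Mb, and chromosome 4 the sparsest, with 20.2. In met1-9 the densities were closer together, from 118.6 per Mb on chromosome 1 to 144.3 on chromosome 5. In hda6 the ratio ran from 1.33 on chromosome 1 to 1.62 on chromosome 2.

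Position within the intervals was followed in 39 tiles of up to 500 kb, fitted with limma together with 205 tiles outside. The value is log2 of peaks per tile plus 1, less the log2 of list length, so it reads as a share of the list. All 39 tiles rose in met1-9 (adjusted p under 0.05 for each, limma), where 23.8% of all 244 tiles were called higher. Their median log2 change was 1.65, and the lowest was 0.36. Outside, 19 tiles were called higher and 107 lower. Scaling by the median tile in place of list length, chosen after seeing the data, left 36 outside tiles lower, while all 39 pericentromeric tiles stayed higher.

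The largest change lay at 4300001 to 4800000 of chromosome 4. This tile had 1 peak in each Col-0 shoot library and 73 and 53 in met1-9, a log2 change of 4.39 (SE 0.24, limma adjusted p = 1.24e-16). Elsewhere it had from 1 peak, in stem, rdd-2 and drdd, to 6 in root replicate 1. A tile at 12000001 to 12500000 of chromosome 5 went from 1 peak in each Col-0 shoot library to 75 and 50. At 14500001 to 15000000 of chromosome 1 no library other than met1-9 listed a peak, and met1-9 listed 5 and 4. The tile at 13000001 to 13500000 of chromosome 1, at an interval's end, went from 42 and 43 peaks to 117 and 68.

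In hda6, 29 of 39 tiles rose and none fell, with a median log2 change of 0.54, where 19.7% of all tiles were called higher by limma. The lowest adjusted p was at 13500001 to 14000000 of chromosome 5, with 35 and 40 peaks in Col-0 shoot and 65 and 45 in hda6 (log2 change 0.53, SE 0.064, limma adjusted p = 1.81e-07). In the other groups fewer tiles passed. In nrpd1-3, 11 rose, where 5.33% of all tiles were called higher, and in root 8 rose and 1 fell, where 13.1% and 13.5% were. The fall in root was lost under scaling by the median tile. In gcn5, 5 rose and 1 fell (8.61% and 6.56% of all tiles), in stem 4 (9.02%) and in sdg2-4 2 (1.23%). All of these comparisons share the Col-0 shoot libraries. Single libraries weighed on these counts. Without Col-0 shoot replicate 1, 4 tiles were called in nrpd1-3, 2 in gcn5, 3 in root and 0 in sdg2-4. Without replicate 2 of the group itself, the counts were 2 in nrpd1-3, 2 in gcn5, 2 in root and 12 in stem, and 7 were called in nrpd1-3 without Col-0 shoot replicate 2.

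**Figure D2:**
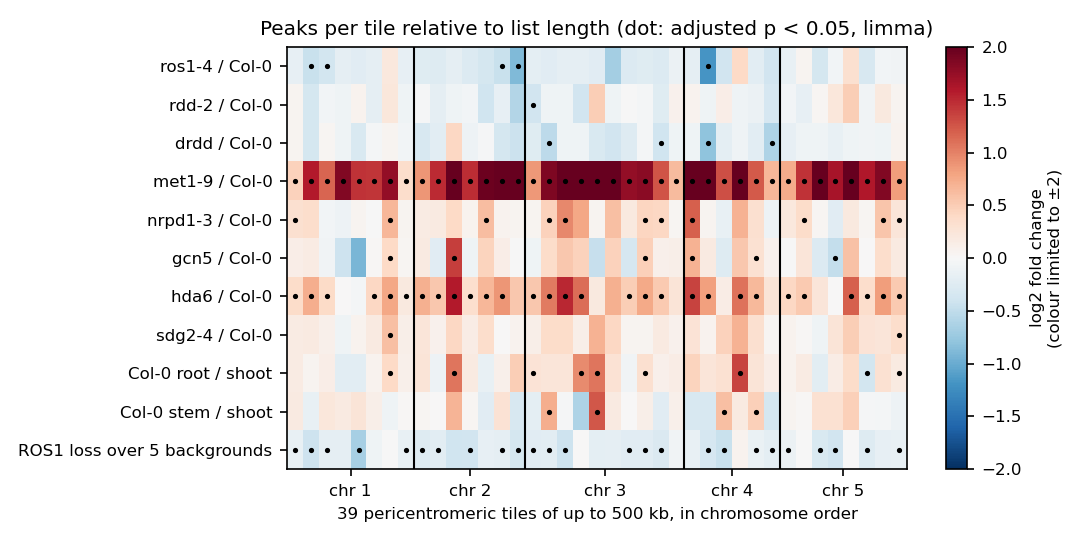
Change in peaks per tile for 39 pericentromeric tiles in chromosome order (columns) and 11 comparisons (rows), as log2 change relative to list length with the colour limited to ±2. A dot marks an adjusted p under 0.05 by limma: the met1-9 row is called higher throughout, 29 tiles are higher in hda6, and 25 tiles are lower in the row for ROS1 loss.

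The pericentromeric share was lower with ros1-4 than without it in each of 5 backgrounds. In Col-0 the share went from 2.52% and 2.57% to 2.19% and 2.24% in ros1-4. In nrpd1-3 it went from 2.99% and 3.04% to 2.67% in both doubles, and in gcn5 from 2.85% and 2.72% to 2.42% and 2.44%. In hda6 it went from 3.91% and 3.55% to 3.33% and 3.22%, and in sdg2-4 from 2.95% in both libraries to 2.59% in both doubles. Libraries with and without ros1-4 did not overlap in any background.

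Averaged over backgrounds, the share fell by 0.369 points, with 10 libraries against 10 (exact two-sided permutation test within backgrounds, adjusted p = 0.000257, the smallest that 7776 arrangements can give). Within backgrounds the relative change ran only from -11.5% in nrpd1-3 to -13.0% in Col-0. By chromosome the change ran from -9.62% on chromosome 5 to -15.9% on chromosome 2. It was lower in all 5 backgrounds on each chromosome, although groups overlapped in 1 background on chromosome 4.

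The number of pericentromeric peaks did not show this change as an average, and backgrounds went opposite ways. Over the 5 backgrounds its log2 difference was -0.0137 (exact permutation p = 0.865), a measure added after seeing the data. The mean number fell from 683.5 to 621.5 in nrpd1-3, from 787.0 to 698.5 in gcn5 and from 538.5 to 532.5 in Col-0. It rose from 802.5 to 875.0 in hda6 and from 667.0 to 711.0 in sdg2-4. The lists with ros1-4 were longer in each background, for example 24054.5 peaks on average against 21175.0 in Col-0, and their other peaks had a higher median fold, 5.51 against 4.78 there. The part of the higher fold in the result was not tested. With every list cut to its 17315 peaks of highest −log10 q, the share fell by 0.3332 points (exact permutation test, adjusted p = 0.000514). Without the hda6 and sdg2-4 backgrounds it fell by 0.3431 points (exact permutation test, adjusted p = 0.00926, the smallest that 216 arrangements can give).

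The fold of the pericentromeric peaks listed went the other way. The median log2 fold of pericentromeric peaks minus that of other peaks rose by 0.0694 with ros1-4 (exact permutation test, adjusted p = 0.000257, 10 libraries against 10). It rose most in sdg2-4, from 0.0928 to 0.238, and least in Col-0, from 0.0950 to 0.123. With lists of equal length the rise was 0.0436 (exact permutation test, adjusted p = 0.0388). Without the hda6 and sdg2-4 backgrounds it was 0.0348 (exact permutation test, adjusted p = 0.00926), so the size of the rise depended on these backgrounds.

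**Figure D3:**
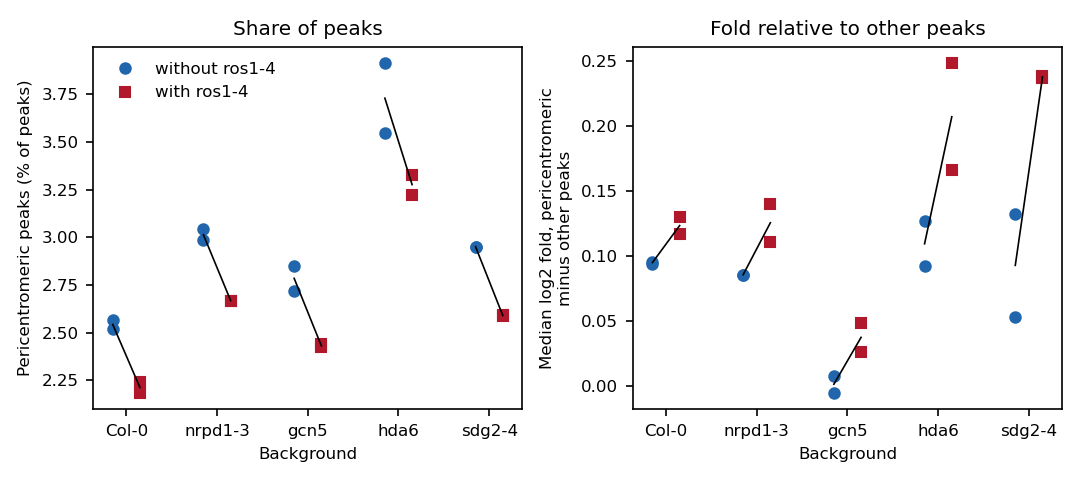
Share of pericentromeric peaks (left) and median log2 fold of pericentromeric minus other peaks (right) in 5 backgrounds, without ros1-4 (circles) and with it (squares), 2 libraries each, with lines joining group means. In every background the squares lie below the circles on the left and above them on the right.

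In the tile fit, 25 of 39 tiles fell with loss of ROS1 and none rose, where 21.3% of all tiles were called lower by limma. Outside, 22 of 205 tiles rose and 27 fell, and under scaling by the median tile 29 rose and 25 fell, while the pericentromeric counts were the same. The tile with the lowest adjusted p, at 13500001 to 14000000 of chromosome 1, fell by 0.41 on the log2 scale (SE 0.058, limma adjusted p = 4.47e-06). It had 13 and 15 peaks in Col-0 and 11 and 12 in ros1-4, but 31 and 18 in hda6 and 28 and 27 in hda6 ros1-4. These falls are relative to list length. The tile at 13000001 to 13500000 of chromosome 1 was called lower with mean counts of 53.9 without ros1-4 and 54.6 with it. Against Col-0 shoot alone, 5 tiles fell in ros1-4, 4 in drdd and 1 in rdd-2, where 8.61%, 3.69% and 1.23% of all tiles were called lower. Without Col-0 shoot replicate 2 the counts were 1, 0 and 0, and 2 were called in ros1-4 without its replicate 2. In drdd 0 were called without either of its libraries, and in rdd-2 0 without its replicate 1 or without Col-0 shoot replicate 1. A difference in the ros1-4 effect between Col-0 and another background was called by limma at 0 of 39 tiles for each of 4 backgrounds, with from 3 to 6 tiles at an unadjusted p under 0.05. Over all 244 tiles it was called at 1 for nrpd1-3, 3 for gcn5 and 0 for hda6 and sdg2-4, so calls were rare everywhere.

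To follow single sites, peaks were gathered into elements of 301 bp, of which 2497 of 42611 were pericentromeric. Of these, 244, or 9.77%, carried a peak in all 30 libraries, against 31.5% outside. An element was listed in a median of 3 libraries, against 25 outside, and 49.7% were listed in just 2 libraries, against 7.12%.

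**Figure D4:**
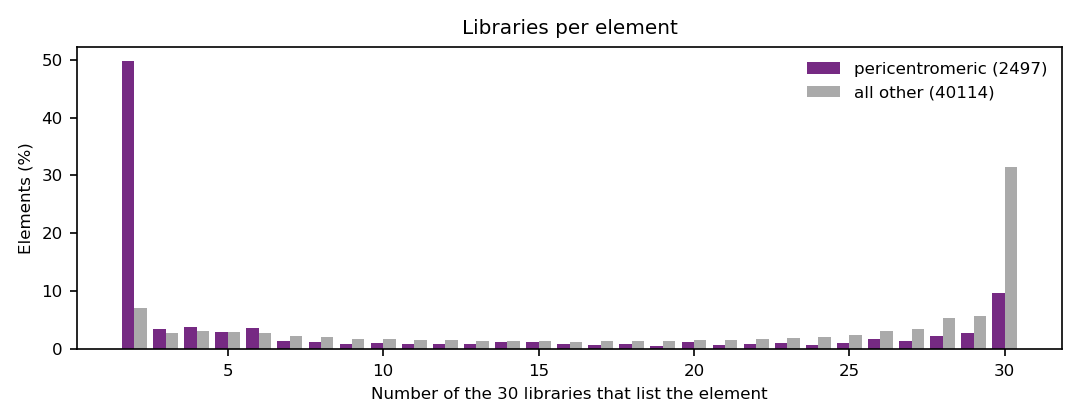
Percent of elements by the number of the 30 libraries that list them, for 2497 pericentromeric elements and 40114 others. Pericentromeric elements pile up at 2 libraries (49.7%), the others at 30 (31.5%).

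Most of the elements with few libraries belonged to met1-9. It alone listed 1170, which is 58.6% of the 1998 pericentromeric elements in both its libraries, against 3.69% of its elements outside. Over all elements, 5.16% were listed in met1-9 alone. Root alone listed 49, where 3.44% of all elements were. The other groups alone listed from 0 to 6, the most in gcn5, where 0.448% of all elements were, and 1 in rdd-2, 0 in drdd and 3 in stem, where 0.00235%, 0.00939% and 0.275% were. The share of elements listed in met1-9 alone was 57.7% on chromosome 4 and 33.8% on chromosome 1.

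Elements listed in met1-9 alone lay in another setting. In Col-0 shoot, 56.0% of 527 pericentromeric elements lay at an end of a protein-coding gene, 1.52% in a pseudogene and 30.0% in none of the classes. Of the elements in met1-9 alone, 12.9% lay at a gene end, 18.6% in a pseudogene and 67.4% in none. The table used has no class for transposable elements.

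Of the 1170, 331 in replicate 1 and 236 in replicate 2 reached 10-fold, which is 28.3% and 20.2%, and the median folds were 6.82 and 5.16. In the same met1-9 libraries, elements listed in both met1-9 and both Col-0 shoot libraries had higher folds than the 1170. There 35.7% and 24.1% reached 10-fold, and the medians were 8.44 and 6.88. Outside the intervals, 16.8% and 11.46% of the elements listed in met1-9 alone reached 10-fold. The strongest lay on chromosome 3 at 12209745 to 12210045, near the pseudogene AT3G30663, with folds of 34.8 and 39.3. The next lay at 13400024 to 13400324, near AT3G32475, with 31.99 and 32.1, and at 12953425 to 12953725, near AT3G31955, with 24.96 and 26.3.

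CACTA1 (AT2G12210), a DNA transposon copy known to be silenced by DNA methylation, is annotated as a pseudogene and had 3 pericentromeric elements within 2000 bp of it, each nearest to a neighbouring gene (AT2G12200, AT2G12230 and AT2G12240). All were listed in met1-9 and in no other library. The strongest, on chromosome 2 at 4910558 to 4910858, had folds of 14.97 and 13.8. The weakest, at 4900799 to 4901099, had 5.47 and 3.42. CACTA1 was looked up by its ID and not picked by rank.

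Against Col-0 shoot, met1-9 gained 1476 pericentromeric elements and lost 21, where 15.1% and 0.699% of all elements were gained and lost. Gained means listed in both test libraries and neither reference library, and lost is the reverse, with no test. The gained elements rest on 1442 separate peaks in replicate 1 and 1377 in replicate 2, since a wide peak can cover several elements. Cutting all lists to equal length left 683 gained and 84 lost. Among the lost was an element in the transcribed pseudogene AT1G43997, on chromosome 1 at 16705217 to 16705517, with folds of 5.88 and 6.58 in Col-0 shoot and of 5.88 to 10.2 over the 28 other libraries than met1-9. It was 1 of 4 pericentromeric elements listed in all libraries but those of met1-9, where 0.0681% of all elements were.

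In hda6, 187 pericentromeric elements were gained and 8 lost, where 3.25% and 1.69% of all elements were. A set of 39 was listed in all met1-9, hda6 and hda6 ros1-4 libraries and in no other, which is 1.56% of pericentromeric elements against 0.12% of the rest and 0.204% of all. One lay on chromosome 5 at 13652744 to 13653044, with folds of 16.5 and 13.9 in met1-9, 13.8 and 8.21 in hda6 and 21.1 and 19.4 in hda6 ros1-4. Another, on chromosome 4 at 5469399 to 5469699 in the body of AT4G08593, had 16.8 and 13.6, then 13.2 and 7.69, then 19.8 and 18.9. Only 2 elements were listed in hda6 and its double alone, where 0.0141% of all elements were. An element near YY1 (chromosome 4, 3767022 to 3767322) had 14.4 in both hda6 libraries, 20.1 and 19.0 with ros1-4, and 3.87 and 8.42 in met1-9.

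In nrpd1-3, 114 elements were gained and 19 lost, where 2.91% and 1.45% of all elements were. At equal list length 66 were gained. A set of 10 was listed in all libraries of nrpd1-3, its double and met1-9 and in no other, where 0.171% of all elements were. The strongest of these, on chromosome 3 at 14859747 to 14860047, had folds of 15.15 and 14.21 in nrpd1-3, 9.74 and 8.04 with ros1-4 and 15.2 and 13.2 in met1-9. The strongest gain, at AT2G06555 on chromosome 2 (2603955 to 2604255), had 15.5 and 17.6 in nrpd1-3, 16.6 and 16.2 with ros1-4 and 5.96 and 5.13 in met1-9. It was also listed in the gcn5 groups, at 2.59 to 4.96, and in no other library. In nrpd1-3 and its double alone 3 elements were listed, and in these with met1-9 and both hda6 groups 4, where 0.0798% and 0.0282% of all elements were.

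In gcn5, 197 elements were gained and 11 lost, where 16.7% and 0.176% of all elements were, and its background level was the highest of all groups. At equal list length the counts turned to 35 gained and 42 lost. In sdg2-4, 72 were gained and 5 lost, where 2.56% and 1.56% were. In gcn5 and its double alone 3 elements were listed, and in sdg2-4 and its double alone 0, where 0.307% and 0.00235% of all elements were. A gain in sdg2-4 lay at the tRNA gene AT5G35605, with folds of 6.88 and 5.66 in sdg2-4 and 7.60 and 5.34 in hda6, and was listed in neither double.

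Losses with ros1-4 were counted as a share of the elements that could be lost. Of 527 listed in both Col-0 shoot libraries, 65 were lost in ros1-4, which is 12.3% against 2.92% outside, where 1.61% of all elements were lost. The share lost was 7.50% against 2.96% in nrpd1-3, 11.6% against 4.77% in gcn5, 7.01% against 1.06% in hda6 and 8.20% against 1.16% in sdg2-4. The counts were 49, 93, 50 and 52, where 1.68%, 3.83%, 0.634% and 0.709% of all elements were lost. When every list was cut to the same length, the share lost ran from 8.85% in nrpd1-3 to 14.9% in Col-0 at pericentromeric elements, and from 3.62% to 6.44% outside. The count lost in hda6 was then 79. The share gained was 4.75% against 10.1% in Col-0 and 9.38% against 19.1% in sdg2-4, when elements listed in met1-9 alone were left out. In hda6 the shares were 20.0% against 21.3%. The counts gained were 32 in Col-0, 21 in nrpd1-3, 13 in gcn5, 63 in hda6 and 50 in sdg2-4, where 3.17%, 2.45%, 0.878%, 5.79% and 5.37% of all elements were. Cutting the lists to equal length left 24 gained in hda6, which is 8.76% against 6% outside, and 13 in sdg2-4, which is 2.78% against 4.32% outside. The demethylase mutants rdd-2 and drdd lost 38 and 59 elements and gained 50 and 35, where 1.12% and 1.37% of all elements were lost and 3.09% and 3.19% gained. Their shares lost were 7.21% against 2.07% outside and 11.2% against 2.47%. A higher share lost inside the intervals was not limited to demethylase mutants. Against Col-0 shoot it was 3.98% against 1.3% in met1-9, 3.61% against 2.81% in nrpd1-3 and 2.09% against 0.3% in gcn5. In hda6 and sdg2-4 it was lower, 1.52% against 3.35% and 0.95% against 3.11%. In stem it was 11.76% against 11.92%. With lists of equal length nrpd1-3 turned to 4.37% against 4.69%, and stem to 12.18% against 9.53%. At equal list length 23 were gained in rdd-2, 14 in drdd and 10 in ros1-4.

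**Figure D5:**
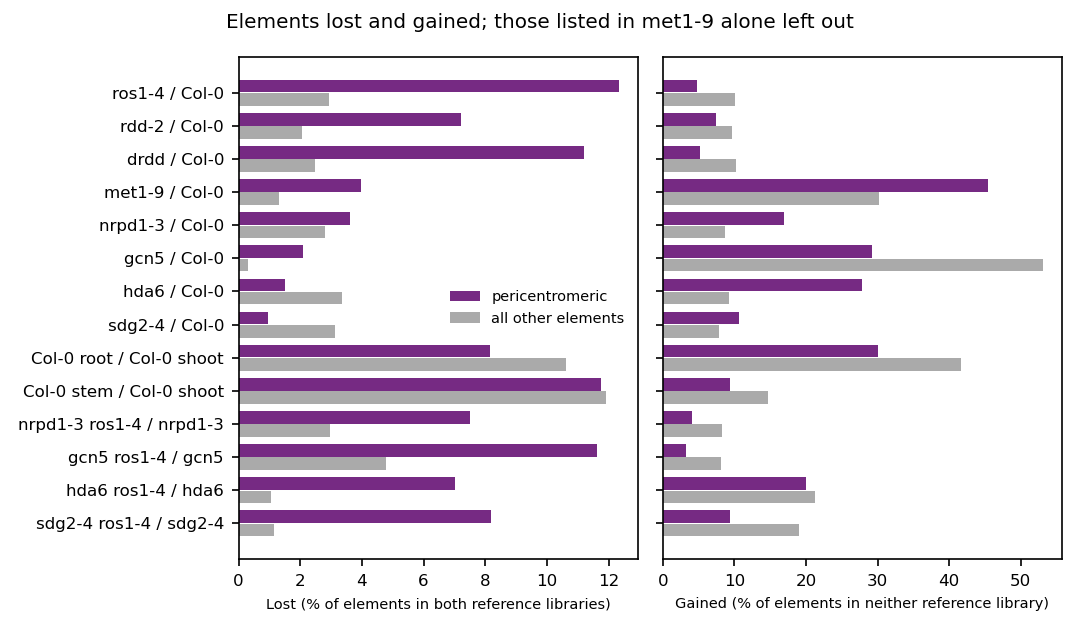
Percent of elements lost (left) and gained (right) in 14 comparisons, for pericentromeric elements and all others, leaving out elements listed in met1-9 alone. The percent lost is higher for pericentromeric elements in each of the 5 comparisons that add ros1-4, such as 12.3% against 2.92% in Col-0. It is also higher in rdd-2, drdd, met1-9, nrpd1-3 and gcn5 against Col-0 shoot, and lower in hda6, sdg2-4, root and stem. With lists of equal length, not drawn, nrpd1-3 and stem changed sides.

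An element at ACS11, an enzyme gene of ethylene synthesis (chromosome 4, 4886661 to 4886961), was listed in both Col-0 shoot libraries, with folds of 6.16 and 8.92. It was listed in none of the ros1-4, rdd-2 and drdd libraries and in every other library, with 5.84 to 13.2 in the ros1-4 doubles. An element near AT5G28410 (chromosome 5, 10356585 to 10356885) had 10.7 and 10.9 in Col-0 shoot and 9.75 and 9.24 in ros1-4, and was listed in no rdd-2 or drdd library. An element without a gene within 2000 bp (chromosome 5, 13560039 to 13560339) had 12.7 and 9.86 in sdg2-4 and was listed in neither sdg2-4 ros1-4 library, while hda6 ros1-4 had 16.5 and 14.25. It was also listed in neither ros1-4 nor drdd. An element 1696 bp from the pseudogene AT3G42980 (chromosome 3, 15025593 to 15025893) had 16.25 and 12.4 in hda6 and 14.4 and 12.3 in met1-9, and was listed in no other library, hda6 ros1-4 included.

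No pericentromeric element was listed in all 10 libraries without ros1-4 and in none of the 10 with it, where 0.0141% of all elements were. With at least 8 and at most 2 libraries, 7 pericentromeric elements followed the allele this way and 0 the opposite way, where 0.155% and 0.27% of all elements did. The strongest of the 7 was near ELF4-L3 on chromosome 2 (2455433 to 2455733), with folds of 7.73 and 4.56 in hda6 and none listed in hda6 ros1-4. That element was listed in both rdd-2 libraries, at 2.97 and 2.60. Of the 7, 5 were listed in no rdd-2 or drdd library. Outside the intervals this held for 39 of the 59 elements that followed the allele the same way, a similar share.

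Fold could be fitted at the 244 pericentromeric elements listed in all 30 libraries, which rest on 239 separate fold profiles, together with 12637 others. Limma called 17 higher and 52 lower in met1-9, where 7.51% and 11.2% of all fitted elements were. Without Col-0 shoot replicate 1 the total called was 37, and without its replicate 2 it was 43. An element near the pseudogene AT4G06474 on chromosome 4 (3054308 to 3054608), which shares its peak with the next element, had folds of 5.53 and 5.38 in Col-0 shoot and 33.6 and 27.6 in met1-9 (log2 change 2.03, SE 0.20, limma adjusted p = 5.6e-07). It was also higher in stem, at 15.8 and 11.1 (log2 change 1.52, limma adjusted p = 2e-05). An element near the pseudogene AT1G35600 (chromosome 1, 13140372 to 13140672) fell by 1.91, from 7 and 8.21 to 2.97 and 2.57 (limma adjusted p = 7.89e-10).

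An element at AT3G42660 on chromosome 3 (14750942 to 14751242) rose in both met1-9 and hda6. Its folds were 3.69 and 3.27 in Col-0 shoot, 12.6 and 11.9 in met1-9 and 13.3 and 8.60 in hda6. The log2 change was 1.36 in met1-9 (limma adjusted p = 1.62e-06) and 1.51 in hda6 (limma adjusted p = 5.09e-06). In hda6, limma called 15 elements higher and 2 lower, where 1.86% and 1.6% of all were, and 18 and 5 with quantile normalization. The total called was 6 without either Col-0 shoot library and 7 without hda6 replicate 1.

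The element at GS2, which encodes plastid glutamine synthetase (chromosome 5, 13833391 to 13833691), was low in Col-0 shoot, with folds of 5.27 and 4.33. It had 9.56 and 7.41 in hda6, 10.96 and 9.26 in sdg2-4, 9.21 and 7.87 in gcn5, 7.42 and 8.34 in nrpd1-3 and 8.36 and 7.99 in drdd. All of these passed the limma test, and all share the same Col-0 libraries. In sdg2-4, 6 elements were called higher and 3 lower, in gcn5 12 and 25, and in nrpd1-3 2 and 2. With quantile normalization the splits were 16 and 22 in gcn5 and 1 and 3 in nrpd1-3. Among all fitted elements the shares were 0.823% and 1.07%, 5.6% and 8.92%, and 0.629% and 0.613%. Without Col-0 shoot replicate 1 the totals called were 1 in sdg2-4, 15 in gcn5 and 2 in nrpd1-3. Leaving out any 1 library of the compared groups, they ran from 1 to 6, 14 to 20 and 1 to 4.

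The demethylase mutants changed few shared elements. Limma called 4 lower and 0 higher in ros1-4 (6 and 1 with quantile normalization), 5 lower and 1 higher in rdd-2, and 8 lower and 2 higher in drdd. Of all fitted elements, 0.885% were lower in ros1-4, 0.256% in rdd-2 and 0.885% in drdd, and 0.287%, 0.0854% and 0.326% higher. In ros1-4 the total called was 1 without Col-0 shoot replicate 1, 2 without ros1-4 replicate 2 and 10 without ros1-4 replicate 1. In rdd-2 it was 3 without its replicate 1 or Col-0 shoot replicate 1, and in drdd it was 5 without its replicate 2. The element at VPS2.1, a gene for a subunit of the ESCRT-III membrane machinery (chromosome 2, 2590380 to 2590680), had 7.96 and 9.18 in Col-0 shoot. It had 5.01 and 4.36 in ros1-4 (log2 change -1.15, limma adjusted p = 1.73e-05) and 5.10 and 4.33 in drdd (-1.05, limma adjusted p = 4.31e-05). An element at BR6OX2, an enzyme gene of brassinosteroid synthesis (chromosome 3, 11813877 to 11814177), had 10.1 and 12.03 in Col-0 shoot and 5.56 and 6.08 in rdd-2 (-0.86, limma adjusted p = 0.000913).

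Over the 5 backgrounds, loss of ROS1 gave 33 higher and 23 lower elements, where 6.96% and 7.83% of all were. With quantile normalization the split turned to 12 higher and 20 lower, so it has no firm direction. The element near the pseudogene AT5G29550 (chromosome 5, 11184915 to 11185215) fell by 0.69 (SE 0.054, limma adjusted p = 1.16e-08). Its folds were 24.7 and 25.6 in sdg2-4 against 15.02 and 15.08 with ros1-4, and 17.3 and 20.2 in nrpd1-3 against 14.9 and 12.3. In Col-0 they were 21.6 and 19.5 against 17.8 and 19.8, and in hda6 26.03 and 18.03 against 18.98 and 18.4, and these groups overlapped.

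Between organs, root gained 202 pericentromeric elements and lost 43, where 13.2% and 5.41% of all were. The strongest loss, in NPQ4, which encodes the photoprotection protein PsbS (chromosome 1, 16871428 to 16871728), had folds of 9.48 and 9.08 in shoot, 5.46 and 5.37 in stem, and was listed in neither root library. It was 1 of 7 pericentromeric elements listed in all libraries but those of root, where 1.28% of all elements were. Root and met1-9 alone shared 3, where 0.0892% were. A gain at SUS4, a sucrose synthase gene (chromosome 3, 15184011 to 15184311), had 7.82 and 9.95 in root and was listed nowhere else. At equal list length 124 elements were gained in root. An element near MYB121, a MYB family gene (chromosome 3, 11837715 to 11838015), had 8.36 and 8.17 in root alone.

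Stem gained 63 elements and lost 62, where 4.64% and 6.1% of all were. A lost element lay at CHR38, known as CLASSY1, a remodeler of RNA-directed DNA methylation (chromosome 3, 14760602 to 14760902), with 7.11 and 6.97 in shoot. At shared elements, limma called 38 higher and 22 lower in root and 29 and 29 in stem, where 11.8% and 15.3%, and 9.99% and 11% of all were. Without Col-0 shoot replicate 2 the totals called were 33 in root and 25 in stem. Root had 36 without its replicate 2, and stem had 28 and 34 without its replicate 1 and 2. The largest fall in root was at GME, an enzyme gene of ascorbate synthesis (chromosome 5, 10862050 to 10862350), from 9.89 and 10.9 in shoot to 3.36 and 2.92 in root and 4.43 and 3.84 in stem (limma adjusted p = 2.25e-10 and 4.66e-07).

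Among the 244, the highest median fold over libraries was on chromosome 4 at 3953446 to 3953746, at a site with no gene within 2000 bp and folds from 21.1 in stem replicate 1 to 36.1 in sdg2-4 ros1-4 replicate 2. Others of high fold in every library lay at HEN2, an RNA helicase gene of the nuclear exosome (chromosome 2, 2901720 to 2902020, from 9.48 to 27.3). One lay at TES, a kinesin gene needed for pollen cell division (chromosome 3, 15190615 to 15190915, from 9.37 to 27.9). The 244 elements had a median fold of 8.02 against 6.97 at shared elements outside, and 56.97% lay at a gene end.

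Overlap between groups is given as a share of each list. Of the 527 elements of Col-0 shoot, 96.4% were also in hda6 ros1-4, 88.2% in met1-9 and 71.4% in stem. Of the 1998 elements of met1-9, 23.3% were in Col-0 shoot, 29.1% in hda6 and 32.4% in hda6 ros1-4. The same overlaps were not counted outside the intervals. Lists differed in length, with 17315 and 20163 peaks in stem and 26915 and 26491 in hda6 ros1-4, and the part of length was not tested. Libraries of 1 group agreed on between 70.5% (hda6) and 91.0% (hda6 ros1-4) of pericentromeric elements. Outside the intervals these 2 groups agreed on 74.4% and 90.8%. An element beside AT5G32440 (chromosome 5, 12078710 to 12079010) counted as gained in each comparison with Col-0 shoot except that of stem. In most libraries that list it, it lies under the same wide peak as the AT5G32450 element, which all 30 libraries list.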

How the data were processed

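The peak lists hold 1 ATAC-seq peak per line on TAIR10. Per the submitters' processing notes, FastQC, BWA, SAMtools, GATK and MACS2 were used, with versions not given in the sources used here. The authors deposited a score, a fold (a ratio of pileup to local background) and −log10 p and −log10 q values for each peak. The members and gene lists were chosen with earlier results of these data known.

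Summits were assigned to the intervals by start plus summit offset. Elements are 301 bp windows around the best summits without overlap, kept where both libraries of at least 1 group listed a peak, and presence needs 1 bp of overlap. Gene names came from a RefSeq table of assembly TAIR10.1, within 2000 bp, used for names only. A gene end runs from 1000 bp outside to 200 bp inside. The background level is the 10th percentile of levels obtained by inverting the Poisson model behind fold and p, for −log10 p under 40.

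Tiles (500 kb) and fold at elements were fitted with limma 3.58.1 in R 4.3.3 over 15 groups, with Benjamini-Hochberg adjustment over 244 tiles or 12881 elements at 0.05. Fold was centred on each library's median. Both fits were tested on simulated data. There, 24 of 244 tiles were changed, as many up as down, unlike met1-9, where all pericentromeric tiles rose. At a 3-fold change, 70.4% of the tiles called under scaling by list length were unchanged ones. Under scaling by the median tile 4% were. At 1.5-fold it was 4.2% under both. Tile values are therefore shares of a list, and the second scaling is named where it ended a direction or moved a balance of calls. Other steps used Python 3.11.15.

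Replicate numbers did not pair libraries: over 105 pairs of groups, correlations of replicate differences ran from -0.45 to 0.432 in tiles. The elements named were the strongest or had the lowest adjusted p in each set, by a fixed rule, except those near CACTA1. That gene was looked up by its ID. AtMu1 and an ONSEN copy, also planned to be looked up, are not described here. Sequences were not used here.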

Additional observations from a re-analysis of the deposited data

How the results depend on the processing

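Of the recomputed results, 368 stayed the same, 164 moved and 1 no longer passed. A count stayed the same if it was within 1.5 times the main count, whatever the direction or the features called. A group's share stayed the same if it moved by less than the SD of its libraries. Sign and side of the threshold were compared only for the permutation tests of ROS1 loss. No tested value changed sign, but balances between groups or directions did: at equal list length gcn5 was below Col-0 shoot in share and lost more elements than it gained, and with quantile normalization more elements were lower than higher for ROS1 loss. Equal list length also turned the share lost inside the intervals against that outside in nrpd1-3 and stem. It did the same for the share gained in hda6 with ros1-4. Scaling by the median tile gave 28 tiles higher in hda6, 10 in nrpd1-3 and 4 in gcn5. For results that moved the cause was not tested, unless stated. The replicate block left 39 tiles called in met1-9, 29 in hda6 and 25 for ROS1 loss, and moved no count of calls by over 1.5 times. The log2 number of pericentromeric peaks, -0.0137 for ROS1 loss, did not pass. Without 1 replicate, the ROS1 loss share ran from -0.405 to -0.332 points and its fold difference from 0.0612 to 0.0776. List length, the background level and unstated handling of reads that match several places limit all counts, and with 2 libraries a group, 1 library moved many counts.

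With a pseudocount of 0.5, the number of tiles called was 0 in rdd-2. Scaled by peaks outside the intervals, the number of tiles called was 0 in rdd-2. With peaks of −log10 q of at least 5, the number of tiles called was 0 in rdd-2, 7 in stem. With lists of equal length, the number of tiles called was 10 in ros1-4, 2 in rdd-2, 7 in nrpd1-3. In tiles of 100 kb, the number of tiles called was 17 in ros1-4, 6 in rdd-2, 9 in drdd, 164 in met1-9, 20 in gcn5, 57 in hda6, 1 in sdg2-4, 28 in root, 16 in stem, 59 in ROS1 loss.

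With quantile normalization, the number of shared elements called was 7 in ros1-4, 14 in sdg2-4, 32 in ROS1 loss. With absent peaks set to the 1st percentile of fold, which brings all 2497 elements in, listed in all libraries or not, so that unequal floors alone can make a difference, the number of elements called was 57 in ros1-4, 32 in rdd-2, 56 in drdd, 1626 in met1-9, 79 in nrpd1-3, 1692 in gcn5, 209 in hda6, 38 in sdg2-4, 340 in root, 212 in stem, 1853 in ROS1 loss.

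With lists of equal length, the number gained was 10 in ros1-4, 23 in rdd-2, 14 in drdd, 683 in met1-9, 66 in nrpd1-3, 35 in gcn5, 124 in root, and with ros1-4 24 in hda6 and 13 in sdg2-4, and the number lost was 84 in met1-9, 42 in gcn5, 12 in sdg2-4, and with ros1-4 79 in hda6. Where a peak had to cover most of the element, 29 were gained in sdg2-4 with ros1-4. With peaks of −log10 q of at least 5, the number lost was 13 in met1-9.

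With peaks of −log10 q of at least 5, the pericentromeric share was 2.9% in root, 2.5% in Col-0 shoot, 2.68% in nrpd1-3 ros1-4, 2.94% in sdg2-4. With intervals shortened by 0.3 Mb at each outer end, the pericentromeric share was 1.81% in root, 1.71% in stem, 1.55% in Col-0 shoot, 1.34% in ros1-4, 1.5% in rdd-2, 1.39% in drdd, 5.62% in met1-9, 1.86% in nrpd1-3, 1.66% in nrpd1-3 ros1-4, 1.71% in gcn5, 1.48% in gcn5 ros1-4, 2.4% in hda6, 2.09% in hda6 ros1-4, 1.82% in sdg2-4, 1.58% in sdg2-4 ros1-4. With lists of equal length, the pericentromeric share was 2.25% in drdd, 6.29% in met1-9, 2.93% in nrpd1-3, 2.63% in nrpd1-3 ros1-4, 2.38% in gcn5, 2.08% in gcn5 ros1-4, 3.37% in hda6 ros1-4, 3.03% in sdg2-4, 2.72% in sdg2-4 ros1-4.

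Leaving out each replicate in turn, the number of tiles called ran from 2 to 8 in root, 3 to 12 in stem, 1 to 5 in ros1-4, 0 to 1 in rdd-2, 0 to 3 in drdd, 2 to 8 in nrpd1-3, 2 to 5 in gcn5, 0 to 2 in sdg2-4. Leaving out each replicate in turn, the number of shared elements called ran from 33 to 44 in root, 25 to 34 in stem, 1 to 10 in ros1-4, 3 to 5 in rdd-2, 5 to 9 in drdd, 37 to 60 in met1-9, 1 to 4 in nrpd1-3, 14 to 20 in gcn5, 6 to 18 in hda6, 1 to 6 in sdg2-4. Leaving out each replicate in turn, the number of elements gained or lost ran from 38 to 72 in ros1-4 (gained), 59 to 88 in rdd-2 (gained), 39 to 74 in rdd-2 (lost), 46 to 73 in drdd (gained), 69 to 99 in drdd (lost), 24 to 59 in met1-9 (lost), 30 to 39 in nrpd1-3 (lost), 11 to 21 in gcn5 (lost), 196 to 379 in hda6 (gained), 12 to 54 in hda6 (lost), 83 to 158 in sdg2-4 (gained), 9 to 34 in sdg2-4 (lost), 52 to 70 in root (lost), 75 to 107 in stem (gained), 70 to 143 in stem (lost). For ros1-4 in other backgrounds it ran from 29 to 43 gained and 74 to 94 lost in nrpd1-3, 14 to 50 and 99 to 142 in gcn5, 68 to 249 and 57 to 122 in hda6, and 57 to 136 and 57 to 84 in sdg2-4. Without 1 library the rule asks for fewer libraries, so these counts can only rise.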

Other observations

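The stretches left out between the intervals of chromosomes 2 and 3 were counted as well. The one on chromosome 2 held 156 and 130 peaks in met1-9, 121 and 119 in Col-0 shoot, and from 111 to 136 in the libraries other than met1-9. The one on chromosome 3 held 38 and 27 in met1-9, 11 and 11 in Col-0 shoot, and from 6 to 16 in the libraries other than met1-9.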
